A study of Caenorhabditis elegans with 2 samples.

Results

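Strong binding sites of UNC-62 that faced a single gene were described in first-stage (L1) larvae of the nematode Caenorhabditis elegans. The sites were entries of a peak list made from both replicates together, on genome build ce11. An entry was taken when its deposited signal was 18 or more and its summit lay 0 to 1000 bp upstream of the 5′ end of a protein-coding gene on one strand only. No protein-coding gene on the opposite strand was allowed to start within that distance in its own direction. In all, 620 of the 30000 entries met the rule. They were 620 of the 2515 entries with a signal of 18 or more, and 620 of the 5707 entries at single-gene promoters of any signal, or 10.9%. The sites were chosen by pooled signal and position, so both are given below as a description only.

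The single group of the study was UNC-62 L1, with 2 biological replicates of ChIP-seq, in which DNA bound by a chosen protein is recovered and sequenced. Both came from whole animals of strain OP600, males and females pooled, with the genotype unc119(ed3) and the transgene wgIs600(unc-62::TY1 EGFP FLAG;unc119). The tagged protein was thus expressed from a transgene, the unc-119 allele and its rescue were shared by both replicates, and the labels name no change to the endogenous unc-62 gene. No cell type was isolated, so a site seen in a few cells and a weak site seen in many cannot be told apart. No untagged animals and no control libraries were analysed here.

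UNC-62 is the worm member of the Meis class of homeodomain proteins, which bind DNA together with partners of the Pbx class and with Hox proteins. The preferred core of Meis proteins reads TGACAG, and Pbx proteins bind next to it at a TGAT core, which gives the joined form TGATTGAC. In the worm, CEH-20 is a Pbx-class partner of UNC-62, and the protein acts in embryonic patterning, in larval neuroblast migration and in yolk gene expression in the adult. Many worm genes are transcribed as parts of operons or lie close behind another gene, so that the sequence in front of a gene can belong to its neighbour as well. At single-gene promoters the genes that start downstream of the summit within the window lie on 1 strand only. This does not remove the ambiguity, as 17 of the 620 summits had 2 or more same-strand genes starting within the window. The summit lay inside a same-strand upstream neighbour at 10.5% of sites and inside an other-strand one at 10.8%.

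Summit sequences of 4 of the strongest sites are shown first because they carry motifs counted below. Each is 151 bases of the reference sequence, read 5′ to 3′ on the strand of the gene, with the summit in the middle. Capitals mark the GAGA repeat GAGAGA, the hexamer with letters GACGCA, the hexamer with letters GCGCGA and the Meis core TGACAG. A match on the opposite strand appears as the reverse complement. The windows are chrII:10563495-10563645 for cdc-48.1 (minus strand), chrIII:3867485-3867635 for rpl-3 (plus strand), chrIII:6979127-6979277 for ceh-20 (plus strand) and chrX:14525804-14525954 for nspc-17 (minus strand).
cdc-48.1: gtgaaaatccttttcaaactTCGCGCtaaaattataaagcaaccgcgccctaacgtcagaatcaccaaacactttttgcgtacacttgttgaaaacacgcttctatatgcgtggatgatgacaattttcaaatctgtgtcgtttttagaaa
rpl-3: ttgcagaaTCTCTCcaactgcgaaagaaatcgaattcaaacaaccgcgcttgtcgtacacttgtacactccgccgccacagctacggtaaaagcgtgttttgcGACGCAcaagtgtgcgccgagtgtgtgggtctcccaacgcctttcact
ceh-20: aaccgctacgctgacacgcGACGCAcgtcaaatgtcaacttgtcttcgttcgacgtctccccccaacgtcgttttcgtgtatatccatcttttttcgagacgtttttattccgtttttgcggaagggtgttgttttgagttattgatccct
nspc-17: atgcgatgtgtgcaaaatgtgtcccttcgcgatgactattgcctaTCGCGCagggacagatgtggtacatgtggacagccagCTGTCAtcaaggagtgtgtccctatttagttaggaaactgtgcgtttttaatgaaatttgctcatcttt

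In 9 of the sites the GAGA repeat ran into the hexamer GACGCA, the last GA of the repeat being the first letters of the hexamer. F17E5.2, which encodes a protein of the mitochondrial carrier family, and sec-61.G, a subunit of the channel that moves proteins into the endoplasmic reticulum, are shown for this joined form. In both it reads as the reverse complement on the strand of the gene, as 1 run of capitals. Capitals mark the same motifs as above. The windows are chrX:12393937-12394087 (plus strand) and chrV:10897319-10897469 (minus strand).
F17E5.2: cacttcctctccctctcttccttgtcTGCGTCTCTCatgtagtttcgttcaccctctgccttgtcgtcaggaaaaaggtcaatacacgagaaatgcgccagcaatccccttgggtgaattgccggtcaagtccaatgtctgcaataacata
sec-61.G: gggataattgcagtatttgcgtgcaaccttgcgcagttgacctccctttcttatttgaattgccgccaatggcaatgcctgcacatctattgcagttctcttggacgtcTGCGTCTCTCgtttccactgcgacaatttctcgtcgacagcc

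Shorter stretches show the Meis core and the joined Pbx and Meis form, again on the strand of the gene and with 27 bases on each side of the match in capitals. The ceh-13 stretch (chrIII:7555054-7555113) holds TGACAG on the strand opposite to the gene. The lin-36 (chrIII:8021206-8021267), mnk-1 (chrII:10555604-10555665) and let-2 (chrX:16390163-16390224) stretches hold TGATTGAC. In mnk-1 the match continues as TGATTGACAG, so that TGACAG and TGATTGAC share bases there, which was found in no other of the 620 windows. That is 0.161% of the sites, against 0.0633% of all 30000 entries.
ceh-13: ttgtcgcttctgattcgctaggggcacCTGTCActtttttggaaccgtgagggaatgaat
lin-36: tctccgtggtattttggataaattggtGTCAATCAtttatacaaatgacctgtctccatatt
mnk-1: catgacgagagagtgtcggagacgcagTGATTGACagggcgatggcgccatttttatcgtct
let-2: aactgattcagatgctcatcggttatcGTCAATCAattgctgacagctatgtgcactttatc

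The signal of an entry is the authors' own value for it, and the lists do not say how it was computed. Among the 620 sites it ran from 18.01 to 128, with a median of 20.8 and quartiles of 19.1 and 24.6. The 5087 weaker entries at single-gene promoters had a median of 11.7. Most of the sites therefore lay close to the minimum: 246 had a signal under 20 and 233 had one from 20 to 25, while 91 lay between 25 and 35 and 50 at 35 or more. The nearest sites inside the minimum were those of pqn-18 at 18.023, trp-4, an ion channel gene, at 18.019 and R05A10.1 at 18.013. The nearest entries outside it were those of F46C5.10 at 17.998, K10C3.4 at 17.996 and adh-1, an alcohol dehydrogenase gene, at 17.994.

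The strongest site lay 163 bp upstream of cdc-48.1, the gene of an AAA ATPase that extracts and unfolds ubiquitin-tagged proteins. Its pooled signal was 128, and the entries that held its summit had signals of 37.02 in replicate 1 and 86.9 in replicate 2. These were the entries ranked 4 and 1 of their lists. The site of rpl-3, which encodes a protein of the large ribosomal subunit, had signals of 31.97 in replicate 1 and 66.5 in replicate 2 and lay 294 bp upstream. That of rpl-35, 464 bp upstream of another large-subunit gene, had signals of 28.8 in replicate 1 and 49.96 in replicate 2. All 3 sites were among the 10 highest entries of both replicate lists, as was the site 89 bp upstream of tos-1, with signals of 28.1 in replicate 1 and 53.2 in replicate 2.

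Other strong sites ranked differently in the replicates. The site of cox-5A, a gene of cytochrome c oxidase, the last enzyme of the respiratory chain, had nearly the same signal in both, 33.8 in replicate 1 and 34.6 in replicate 2, but ranked 5 and 38. That of his-37, a histone gene, had 7.44 in replicate 1 and 52.4 in replicate 2, where it ranked 12857 and 9. C47E8.4, whose site lay in an intron of hsp-90, the gene of the cytosolic chaperone of that name on the other strand, had 7.24 in replicate 1 and 43.9 in replicate 2. The site 140 bp upstream of C34C12.8, a homolog of the GrpE co-chaperone of mitochondria, had no entry in replicate 1 and one of 39.6 in replicate 2. For lin-36, a gene that acts against vulval fates, the order was the reverse, with rank 11 in replicate 1 and rank 106 in replicate 2.

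**Figure D1:**
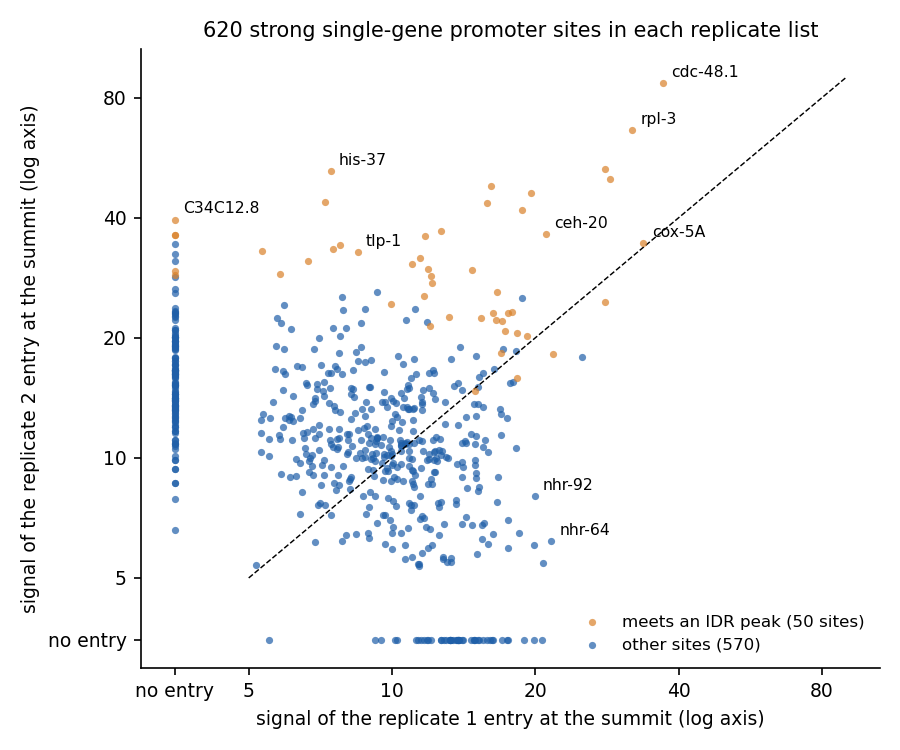
Signal of the replicate 1 entry (x axis, log scale) against that of the replicate 2 entry (y axis, log scale) holding the summit of each of the 620 sites, with sites that have no entry in a list drawn at the edge and the line of equal signal dashed. The 50 sites that meet an IDR peak lie mostly above the line, and 126 sites have an entry in replicate 2 only against 48 in replicate 1 only.

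Each replicate list held 30000 entries, so that weak entries are included and presence in a list is a low bar. An entry held the summit in the replicate 1 list at 494 sites (79.7%) and in the replicate 2 list at 572 sites (92.3%), with 446 sites in both, 48 in replicate 1 only, 126 in replicate 2 only and none in neither. A stricter reading used the strongest 2515 entries of each replicate list, the same number as pooled entries with a signal of 18 or more. Such a top entry held the summit at 36.1% of sites in replicate 1 (exact binomial 95% interval 32.3 to 40.05) and at 51.5% in replicate 2 (47.4 to 55.5). All intervals of shares given here are of that kind and cover counting error only. Only 83 sites (13.4%) were held by a top entry in both replicates, and 160 (25.8%) by one in neither.

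These replicate values are not independent of the choice of sites, since the pooled list was made from the same reads. They do show how far the pooled signal rested on 1 replicate: 236 sites were in the top list of replicate 2 and not in that of replicate 1, against 141 the other way round. The share with a top entry followed the pooled signal. In replicate 1 it was 25.2% for signals under 20 and 72.0% for those of 35 or more, and in replicate 2 it was 30.5% and 100%.

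The irreproducible discovery rate (IDR) compares the ranks of peaks between replicates, and the authors' IDR list held 119 peaks. Of the 2515 strong pooled entries 119 met one of them, or 4.73%, and of the 620 sites 50 did, or 8.06% (6.04 to 10.5). All 50 had a signal of 35 or more. Among the strong entries elsewhere the share was 13.3% at divergent promoters (158 entries), 2.81% in distal introns (783 entries) and 2.73% at other distal places (954 entries). Each IDR peak was a pooled entry of high signal, so that these shares restate the signal and do not add to it.

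The sites lay nearer to the gene than weaker entries did. Their median distance from the 5′ end was 381 bp (95% interval 352 to 412), against 476 bp (464 to 490) for the weaker single-gene entries. Of the sites, 28.5% (25.02 to 32.3) lay at 200 to 399 bp, against 20.6% of weaker entries, and 13.4% (10.8 to 16.3) at 800 to 1000 bp, against 17.99%. The shares under 200 bp were closer, at 24.03% (20.7 to 27.6) for the sites and 21.2% for weaker entries. Sites with a signal under 20 had a median distance of 408 bp, and those of 35 or more had one of 283.5 bp.

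**Figure D2:**
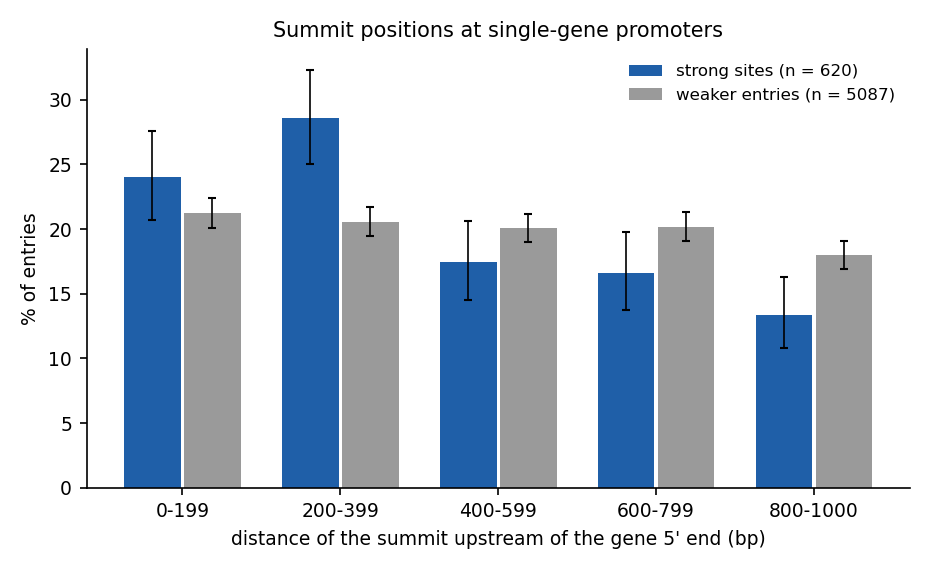
Share of entries (y axis, %) by distance of the summit upstream of the gene 5′ end (x axis, bins in bp) for the 620 strong sites and the 5087 weaker single-gene entries, with exact binomial 95% intervals. The strong sites exceed the weaker entries most at 200 to 399 bp and are below them from 400 bp on.

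From the 5′ end to the nearest protein-coding gene upstream the median was 1485 bp (1266 to 1744) for the sites and 1243 bp (1158 to 1350) for weaker entries, and these intervals overlap. For sites of a signal of 25 or more the median was 1313 bp (848 to 1813), still above that of weaker entries. The direction did not hold for those that met an IDR peak, with 814 bp (538 to 1611). The upstream neighbour lay on the same strand, head to tail, at 354 sites, or 57.1% (53.1 to 61.0), against 61.2% of weaker entries, and on the other strand at 266 sites. Summits fell between genes at 78.5% (75.1 to 81.7) of sites, against 68.9% of weaker entries. They fell in a coding exon at 5.0% (3.42 to 7.02), as that of ran-5 did in R12C12.6, against 10.6%. The body of a same-strand neighbour held the summit at 10.5% of sites (8.18 to 13.2), against 18.05% of weaker entries. The downstream genes were also somewhat longer, with a median of 2608 bp, against 2324 bp for weaker entries and 2027 bp for all protein-coding genes.

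By chromosome, the counts ran between 87 sites on II and 118 on V. Of all single-gene entries of a chromosome, between 9.53% (V) and 12.04% (I) were strong. The X chromosome held 15.97% (13.2 to 19.1) of the sites and 15.5% of the weaker entries. Among strong divergent promoter entries it held 4 of 158, or 2.53% (0.694 to 6.35).

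The base composition under the summits differed with the signal. Within 100 bp on each side of the summit the median GC content was 34.8% (34.3 to 35.8) for the sites and 32.3% for the weaker entries. It was 37.3% at strong divergent promoters, 31.3% in strong distal introns and 32.3% over all entries. At other strong distal entries it was 34.3% (33.3 to 34.8), an interval that overlaps that of the sites. Within the sites it was 33.1% for a signal under 20, 33.3% from 20 to 25, 40.3% from 25 to 35 and 43.8% at 35 or more. The 2 replicates differed in this respect. Single-gene promoter entries in the top list of replicate 1 had a median GC of 32.3%, the same as those below it, whereas in replicate 2 the values were 37.3% in the top list and 32.8% below it. The part of base composition in the results that follow was not tested, beyond the values within classes of GC content given below.

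Of 12 motifs searched on both strands in these windows, the Meis core was not among those whose share differed. TGACAG was found at 42 sites, or 6.77% (4.93 to 9.05), against 6.41% (5.75 to 7.12) of weaker entries and 6.40% of all 30000 entries of the list. Its share was 6.33% at strong divergent promoters, 6.90% in strong distal introns and 9.22% (7.46 to 11.2) at other strong distal entries. Among the sites it was 6.50% for a signal under 20 and 6.0% at 35 or more. The shorter TGACA, which lies within TGACAG, was found at 33.2% of sites and 32.7% of weaker entries, and TGATNNAT, the form bound by Pbx with Hox proteins, at 14.4% of sites and 15.4% of weaker entries.

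The joined form TGATTGAC was rarer and differed more from the weaker entries. It was found at 11 sites, or 1.77% (0.889 to 3.15), against 24 of 5087 weaker entries, or 0.472% (0.303 to 0.701), and 0.600% of all entries. The other strong entries were close to the sites. Their shares were 1.27% (0.154 to 4.50) at divergent promoters, 1.15% (0.527 to 2.17) in distal introns and 1.47% (0.805 to 2.45) at other distal places. All 3 intervals overlap that of the sites. The 11 genes were lin-36 with a signal of 51.5, mnk-1, a MAP kinase-interacting kinase gene, uda-1, ikke-1, cpf-2, let-2, a gene of basement membrane collagen, gsp-2, chil-17, B0393.9, ruvb-2 and glo-4. The match lay within 50 bp of the summit in 8 of the 11. This share rested on the pooled list: among single-gene entries it was 0.899% (0.293 to 2.09) in the top list of replicate 1, against 0.472% below it, and 0.474% (0.0978 to 1.38) in that of replicate 2, against 0.647% below it. The intervals overlap in both replicates.

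The 42 sites with TGACAG held 45 matches, of which 31, or 68.9% (53.4 to 81.8), lay within 50 bp of the summit, against 52.1% (46.6 to 57.5) of the 338 matches in weaker entries. They read TGACAG on the strand of the gene in 12 matches, or 26.7% (14.6 to 41.9), and CTGTCA in the others. In weaker entries 147 of 338 matches, or 43.5% (38.1 to 48.96), read TGACAG on the strand of the gene. Sites with the core had a median signal of 20.6 and those without it one of 20.8. A top entry of replicate 1 held the summit at 45.2% of sites with the core and at 35.5% of sites without it. In replicate 2 the values were 54.8% and 51.2%. The shares with the core rest on 42 sites.

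The strongest site with TGACAG was that of nspc-17, at 55.5, with signals of 15.9 in replicate 1 and 43.5 in replicate 2. It was followed by tlp-1, which encodes a zinc finger factor that shapes the male tail and neuronal fates, with 2 matches, a pooled signal of 41.9 and signals of 8.47 in replicate 1 and 32.9 in replicate 2. Next came the insulin-like peptide gene ins-39 at 35.5, with 12.02 in replicate 1 and 21.4 in replicate 2. The Hox gene ceh-13 at 34.7 had 13.9 in replicate 1 and 18.9 in replicate 2. The others named by the same order were dnj-9, of a DNAJ co-chaperone, at 32.3, mmad-1 at 30.4, C09G9.1 at 28.6 and K09F6.10 at 25.9.

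Over all sites, GAGA repeats and 2 CpG-bearing hexamers had higher shares than at weaker entries. GACGCA and GCGCGA were taken up because an earlier ranking of hexamers in these data, made on the IDR peaks, had put them forward, so that their counts there are not independent. GAGAGA was found at 143 sites, or 23.1% (19.8 to 26.6), against 11.7% (10.8 to 12.6) of weaker entries and 10.8% of all entries. GACGCA was found at 85 sites, or 13.7% (11.1 to 16.7), against 4.36% (3.82 to 4.96) of weaker entries and 4.37% of all entries. GCGCGA was found at 37 sites, or 5.97% (4.24 to 8.13), against 2.54% (2.12 to 3.01) and 2.24%. Any of the 3 was found at 209 sites, or 33.7% (29.99 to 37.6), against 16.7% of weaker entries.

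The same motifs were not confined to single-gene promoters. At strong divergent promoters the shares were 18.4% (12.7 to 25.3) for GAGAGA, 18.4% (12.7 to 25.3) for GACGCA and 10.1% (5.90 to 15.9) for GCGCGA. In strong distal introns GAGAGA reached 17.5% (14.9 to 20.3), while GACGCA was found in 6.26% (4.67 to 8.19) and GCGCGA in 3.19% (2.08 to 4.68). The intervals of GACGCA at the sites and at distal introns do not overlap, whereas those at the sites and at divergent promoters do. Both CpG hexamers were picked on the IDR peaks, however. Such a peak was met by 8.06% of the sites, 13.3% of the divergent entries and 2.81% of the intronic ones. These hexamer contrasts between places are therefore not independent of that choice. Shares without the IDR peaks were not computed for the other strong sets.

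**Figure D3:**
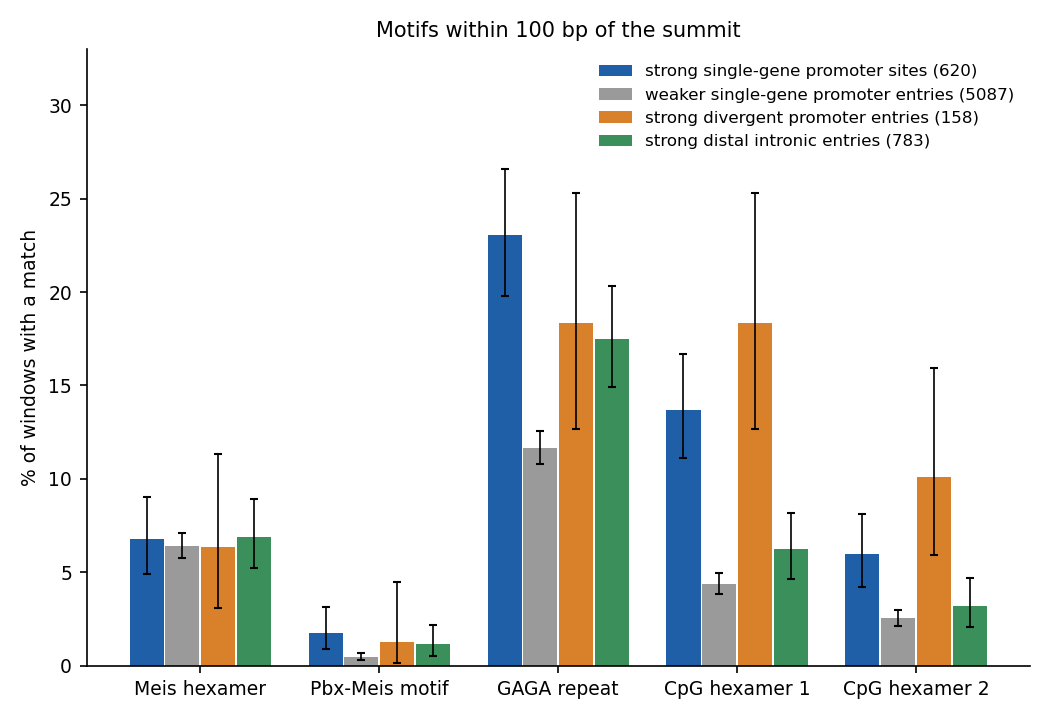
Share of summit windows, 100 bp on each side, with a match (y axis, %) for the Meis hexamer, the joined Pbx-Meis motif, the GAGA repeat, CpG hexamer 1 (the one that ends in the letters GCA) and CpG hexamer 2, in 4 sets of entries, with exact binomial 95% intervals. The Meis hexamer is near 6 to 7% in all 4 sets, whereas the GAGA repeat and both CpG hexamers are higher at the strong single-gene sites than at the weaker entries.

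Within the sites, GAGAGA was found at 16.7% (12.2 to 21.9) for a signal under 20, 21.9% (16.8 to 27.8) from 20 to 25, 32.97% (23.5 to 43.6) from 25 to 35 and 42% (28.2 to 56.8) at 35 or more. GACGCA was found at 8.94% (5.69 to 13.2), 12.02% (8.14 to 16.9), 15.4% (8.67 to 24.5) and 42% (28.2 to 56.8), and GCGCGA at 2.85% (1.15 to 5.77), 5.15% (2.69 to 8.82), 6.59% (2.46 to 13.8) and 24% (13.1 to 38.2). The 50 sites of 35 or more are those that met an IDR peak, on which both hexamers had been picked, so their shares there are no evidence of a trend. Over the 3 lower classes the intervals of each hexamer overlap. Leaving out the 50 sites, the shares among the other 570 were 21.4% (18.1 to 25.002) for GAGAGA, 11.2% (8.76 to 14.1) for GACGCA and 4.39% (2.86 to 6.41) for GCGCGA. The interval of GCGCGA then overlaps that of weaker entries, and those of GAGAGA and GACGCA do not. The hexamer GACGCA was also more common close to the gene: it was found at 20.8% (14.6 to 28.2) of sites under 200 bp from the 5′ end and at 5.83% (2.17 to 12.2) of those at 600 to 799 bp, against 5.56% and 3.996% of weaker entries. These shares by distance include the 50 IDR sites.

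The differences varied with base composition. In windows of 40% GC or more GAGAGA was found at 45.6% (38.2 to 53.1) of 182 sites and 22.7% (19.7 to 25.9) of 719 weaker entries, and GACGCA at 30.8% (24.2 to 38.02) and 11.5% (9.30 to 14.1). In windows under 30% GC the shares were 8.94% (5.20 to 14.1) of 179 sites and 6.07% (5.03 to 7.25) of 1862 weaker entries for GAGAGA, and 1.12% (0.136 to 3.98) and 1.45% (0.958 to 2.10) for GACGCA. For both motifs the intervals lie apart in the GC-rich class and overlap in the GC-poor one. The classes include the 50 IDR sites, on which the CpG hexamers were picked and whose median GC content was 43.8%. The hexamer shares by class are therefore not independent of that choice. From 30 to 35% GC they overlap for both, with GAGAGA at 10.5% of sites and 10.8% of weaker entries. From 35 to 40% GC they overlap for GAGAGA, at 23.8% (16.7 to 32.2) and 15.5% (13.3 to 17.9), and lie apart for GACGCA, at 15.1% (9.33 to 22.5) and 6.39% (4.95 to 8.08). For GCGCGA the intervals overlap in all 4 classes of GC content, also at 40% or more, where the shares were 12.1% (7.73 to 17.7) and 7.79% (5.94 to 9.995).

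The replicates also differed in these motifs. In replicate 2, single-gene entries in the top list had GAGAGA in 24.6% (21.3 to 28.2) and those below it in 12.81% (11.9 to 13.8). In replicate 1 the values were 13.7% (10.9 to 16.8) in the top list and 12.1% (11.2 to 12.997) below it, so that the difference in GAGAGA rested on replicate 2. GACGCA was found in 13.3% (10.7 to 16.2) of the top list and 5.33% (4.72 to 5.997) below it in replicate 2, and in 7.91% (5.81 to 10.5) and 4.88% (4.30 to 5.50) in replicate 1. For GCGCGA the shares were 6.79% (4.96 to 9.04) and 2.69% (2.25 to 3.18) in replicate 2, and 5.04% (3.37 to 7.20) and 2.30% (1.91 to 2.75) in replicate 1. The intervals of both CpG hexamers lie apart in each replicate, but both hexamers had been picked on the IDR peaks. A top entry held the summit at 72% of the IDR sites in replicate 1 and at 100% in replicate 2. The hexamer shares by replicate are therefore not independent of that choice. They were not computed without the IDR sites, so they do not show whether the differences hold apart from them.

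**Figure D4:**
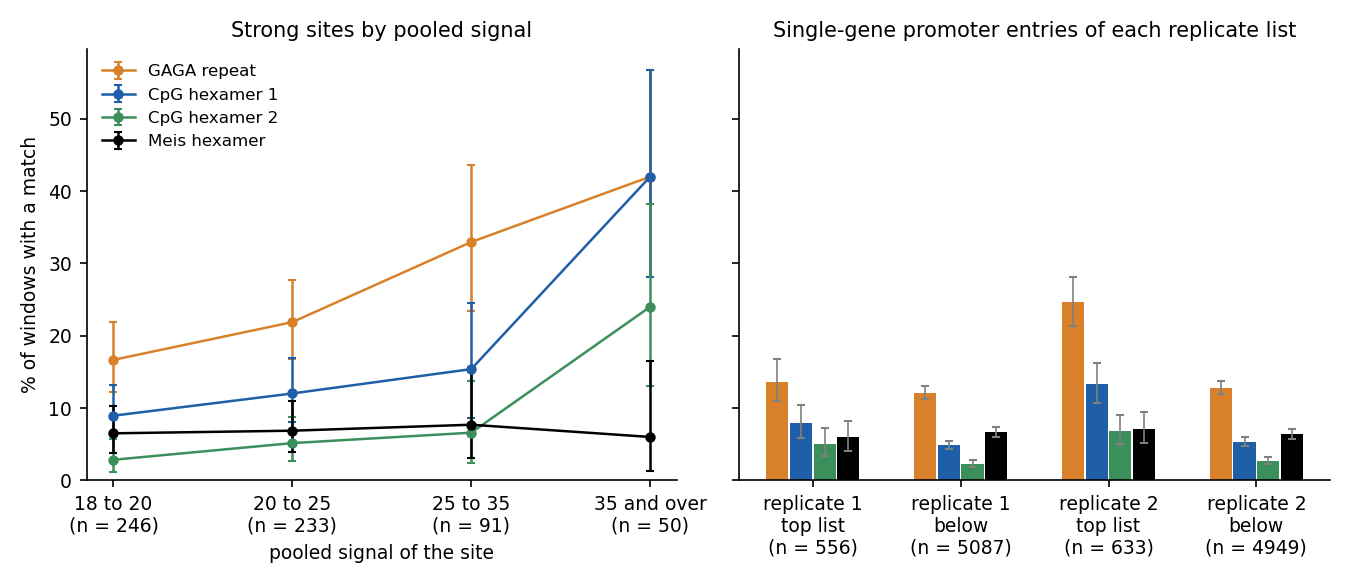
Share of summit windows with a match (y axis, %) for the GAGA repeat, both CpG hexamers and the Meis hexamer, by pooled signal of the 620 sites (left) and for single-gene entries ranked inside or below the top list of either replicate (right), with exact binomial 95% intervals and the same colours in both panels. The CpG hexamers are highest at 35 and over, which are the 50 IDR sites on which they were picked, and the GAGA repeat in the top list is 24.6% in replicate 2 and 13.7% in replicate 1.

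TATAAA and TTTCAG had lower shares at the sites than at weaker entries. TATAAA was found at 19.5% (16.5 to 22.9) of sites and 26.5% (25.3 to 27.7) of weaker entries. TTTCAG, a splice acceptor sequence of worm messages, was found at 31.5% (27.8 to 35.3) and 36.9% (35.6 to 38.3). Their shares within classes of GC content were not computed. GATAA, the core of GATA factors, differed little, at 39.5% of sites and 41.5% of weaker entries, as did the E-box CACGTG, at 3.71% and 2.91%, and GAANNTTC, the unit of the heat shock element, at 13.4% and 14.4%.

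Small RNA genes and repeated sequence touched a few of the sites. A tRNA, snRNA or snoRNA gene lay within 300 bp of the summit at 26 sites, or 4.19% (2.76 to 6.08), against 1.24% (0.953 to 1.58) of weaker entries. The other strong entries were close to the sites, with 4.43% at divergent promoters, 3.45% in distal introns and 3.56% at other distal places. At the 26 sites the nearest such genes were 10 tRNA, 10 snoRNA and 6 snRNA genes. The site of egg-5, with a signal of 66.6 and 584 bp upstream of that gene of an inactive phosphatase needed in the egg, lay beside the snRNA gene sls-2.4, and those of snr-4 lay beside the snRNA gene T11F9.15. Not every 31-base word was unique in the genome at 38 sites, and in the egg-5 entry 86.55% of them were. The part of such neighbours in the signal was not tested.

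The 620 sites had 611 nearest genes, or 3.06% of the 19973 protein-coding genes, and 9 genes had 2 sites each. Lists of 31 gene families and pathways are set against that background share, as counts with no test. Genes with no single-gene promoter entry of any signal remain in the totals. The lists together held 98 of the 611 genes, so that most genes with a site belonged to none of them.

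For ribosomal proteins and translation factors the interval of the share lay above the background of 3.06%. The same held for the lists of chaperones, bZIP and zinc finger regulators, body wall muscle, and insulin and TOR signalling. It also held for actin and tubulin genes and for heterochronic genes, all given below. The lists are not separate: act-4 and unc-60 were counted both as actin and tubulin genes and as body wall muscle genes. The gene hlh-1 was counted as a bHLH factor and as a body wall muscle gene. Of 81 ribosomal protein genes 14 had a site, or 17.3% (9.78 to 27.3), and these 14 were among 24 with a single-gene entry of any signal. Besides rpl-3 and rpl-35 they were led by rps-28, of the small subunit, with a pooled signal of 35.2, and 16.5 in replicate 1 and 22.2 in replicate 2. None of the 14 sites held TGACAG, their median GC content was 39.6%, and 7 had a top entry in replicate 1 and 9 in replicate 2. Of 40 translation factor genes 8 had a site, or 20% (9.05 to 35.6). These included eif-3.C, a subunit of initiation factor 3, at 36.8, with 14.96 in replicate 1 and 14.7 in replicate 2, eif-3.B at 26.1 and eef-1B.2, of elongation factor 1, at 25.9. Of 32 genes for aminoacyl-tRNA synthetases, which load tRNAs, 3 had a site, or 9.38% (1.98 to 25.02), led by qars-1 at 22.4. Of 70 mitochondrial ribosomal protein genes 3 had one, or 4.29% (0.893 to 12.02), led by mrpl-55 at 35.7. Both of these intervals hold the background.

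Genes of protein folding and turnover gave a mixed count. Of 70 heat shock protein and chaperone genes 9 had a site, or 12.9% (6.05 to 23.01). The first was hsp-1, of the constitutive Hsp70 of the cytosol, at 39.2, with 7.78 in replicate 1 and 34.2 in replicate 2. It was followed by dnj-9 and by hsp-3, of an Hsp70 of the endoplasmic reticulum, at 31.99, with no entry in replicate 1 and 25.9 in replicate 2. The ubiquitin system had 5 of 71 genes, with cdc-48.1, skr-16 at 28.7 and cul-3, of a cullin scaffold, at 20.6. The proteasome had 1 of 33, pas-1, at 18.5, or 3.03%, which equals the background. Of 53 genes of the respiratory chain and ATP synthase 3 had a site, cox-5A, cyc-1 at 24.5 and asb-2 at 19.5, and the vacuolar ATPase had none of 21.

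Among genes of the nucleus and of cell structure, histones had 1 of 81, his-37, and splicing factors had 2 of 54, snr-4 and mog-3. Actin and tubulin genes had 4 of 32, or 12.5% (3.51 to 29.0), led by tba-2, of alpha-tubulin, at 37.6, with 17.3 in replicate 1 and 20.8 in replicate 2, and followed by act-4 at 22.6 and tbb-2 at 22.4. Small GTPases of traffic and their partners had 2 of 34, ran-4 at 39.5 and ran-5 at 33.2.

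**Figure D5:**
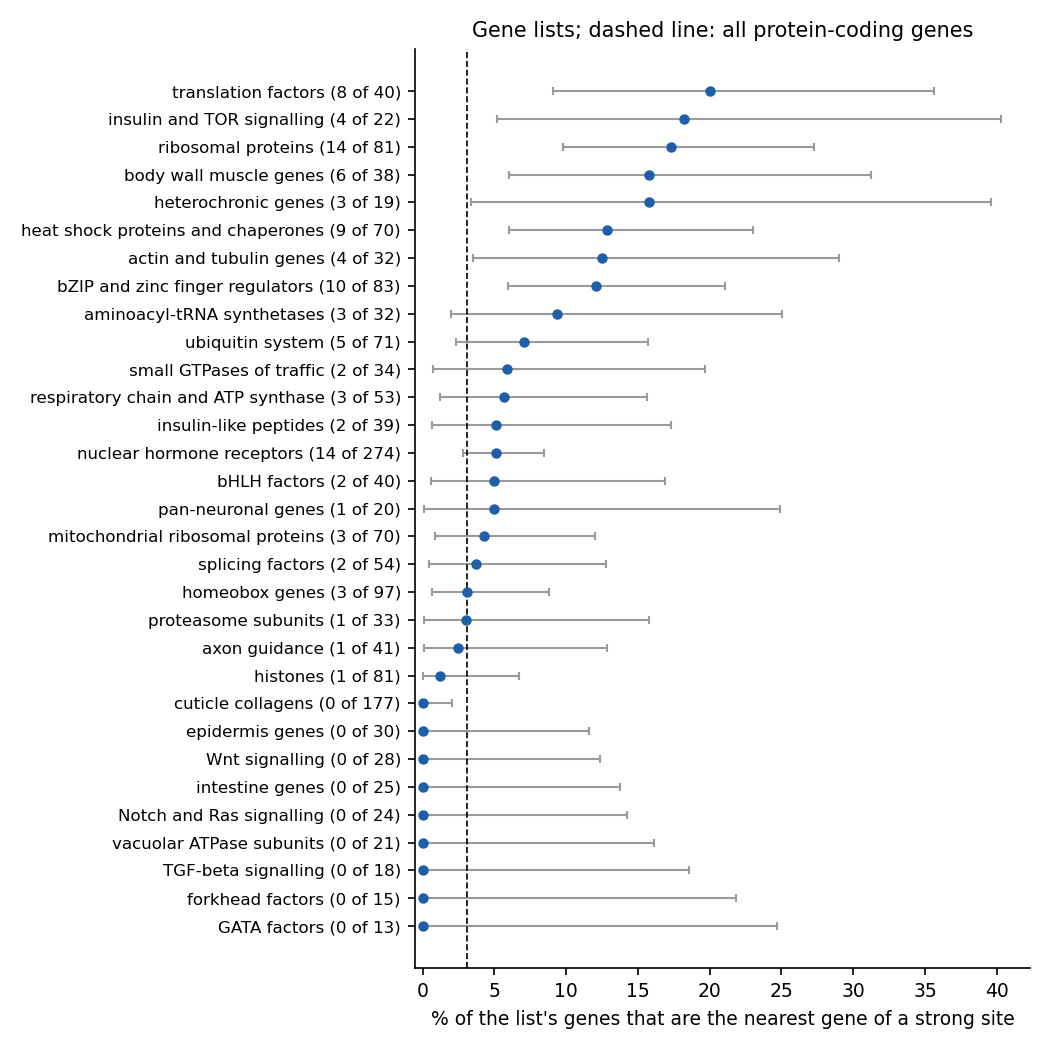
Share of the genes of each list that are the nearest gene of a strong single-gene promoter site (x axis, %), with the number of genes with a site and in the list, exact binomial 95% intervals, and the 3.06% of all protein-coding genes as a dashed line. The intervals of translation factors, ribosomal proteins and several other lists lie above the line, and that of cuticle collagens, with 0 of 177 genes, lies below it.

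Homeobox genes as a class were at the background, with 3 of 97 genes, or 3.09% (0.642 to 8.77), and the 3 were ceh-20, ceh-13 and mab-5. The site of ceh-20, the gene of the Pbx partner of UNC-62, lay 682 bp upstream and had a pooled signal of 57.9, with 21.03 in replicate 1 and 36.5 in replicate 2. The site of ceh-13, the Hox gene of anterior fates, lay 626 bp upstream, and the upstream neighbour, on the other strand, was the Hox gene lin-39. That of mab-5, the Hox gene of posterior fates and of neuroblast migration, lay 840 bp upstream and had a pooled signal of 33.7, with 11.2 in replicate 1 and 23.6 in replicate 2. All 3 sites had a top entry in both replicates, and of the 3 only the ceh-13 window held TGACAG.

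The shares of other regulators varied. Of 83 bZIP and zinc finger regulators 10 had a site, or 12.05% (5.93 to 21.04), led by zfp-3 at 44.1, tlp-1, and ztf-7 at 32.5. Nuclear hormone receptors, a family much enlarged in worms, had 14 of 274, or 5.11% (2.82 to 8.42), an interval that holds the background. They were led by nhr-3 at 28.9, nhr-92 at 26.5 and nhr-119 at 26.3. The entry of nhr-92 had a signal of 19.9 in replicate 1, rank 38, and of 8.02 in replicate 2, rank 10804. The bHLH factors had 2 of 40, hlh-11 at 22.6 and hlh-1, of the worm MyoD homolog, at 19.2. GATA factors had none of 13 and forkhead factors none of 15.

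Of signalling genes, the Wnt list had 0 of 28 (interval up to 12.3%), TGF-beta 0 of 18 (up to 18.5%), Notch and Ras 0 of 24 (up to 14.2%), and axon guidance 1 of 41 (0.0617 to 12.9%), which was sdn-1, of syndecan. All 4 intervals hold the background. Insulin and TOR signalling had 4 of 22, or 18.2% (5.19 to 40.3), led by ftt-2, of a 14-3-3 protein, at 21.9, let-363, of the TOR kinase, at 19.8, and rsks-1, of the S6 kinase, at 19.7. The signals of ftt-2 were none in replicate 1 and 20.2 in replicate 2, those of let-363 were 13.1 in replicate 1 and 5.50 in replicate 2, and those of rsks-1 were 8.69 in replicate 1 and 8.05 in replicate 2. Insulin-like peptides had 2 of 39, ins-39, and ins-35 at 18.04.

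Of genes named for tissues and timing, body wall muscle had 6 of 38, or 15.8% (6.02 to 31.3), led by mup-2, of troponin T, at 23, act-4 and unc-60, of cofilin, at 21.6. None of the 6 had a top entry in replicate 1, and 5 had one in replicate 2. mup-2 and act-4 had no entry in replicate 1, and the entry of unc-60 had a signal of 8.76 in replicate 1 and 23.6 in replicate 2. Heterochronic genes, which time larval divisions, had 3 of 19, or 15.8% (3.38 to 39.6). These were puf-9, of a Pumilio RNA-binding protein, at 63.3, with 18.8 in replicate 1 and 41.8 in replicate 2, ain-1, of a miRNA effector, at 32.1, with none in replicate 1 and 32.4 in replicate 2, and lin-14 at 18.7, with 8.63 in replicate 1 and 9.99 in replicate 2. Pan-neuronal genes had 1 of 20, unc-64, of syntaxin, at 25.8. Cuticle collagens had 0 of 177, which allows a share of up to 2.06%, although 42 of them had a single-gene entry of lower signal. The intestine list had 0 of 25 and the epidermis list 0 of 30. A binding site in whole larvae does not say in which tissue it lies.

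Of the 9 genes with 2 sites, cox-5A had a second entry 987 bp upstream, with a pooled signal of 27.5, and 10.6 in replicate 1 and 17.2 in replicate 2. For F17E5.2 the entry 246 bp upstream, at 45.2, met an entry of replicate 2 only (rank 58), and the one 43 bp upstream, at 22.6, met an entry of replicate 1 only (rank 30). The 2 entries overlap. C34C12.8, snr-4, unc-14 and cdka-1 also had 2 sites, and 4 neighbouring pairs of sites overlapped in all.

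Among the remaining strongest sites, that of icd-2, which encodes the alpha subunit of the nascent polypeptide-associated complex, had a pooled signal of 57.4, with 16.1 in replicate 1 and 48.2 in replicate 2. The site 924 bp upstream of cbp-1, a homolog of the p300 and CBP acetyltransferases, had 52.4, with 12.7 in replicate 1 and 37.02 in replicate 2. The site of sco-1, a copper chaperone gene of cytochrome c oxidase, had 48.07, with 11.7 in replicate 1 and 36.1 in replicate 2. That of W03F8.4, a homolog of a subunit of the KEOPS complex that modifies tRNA, had 43.5, with 12.1 in replicate 1 and 27.4 in replicate 2. In all 4 the signal of replicate 2 exceeded that of replicate 1, as it did in 281 of the 446 sites with an entry in both lists. Signals of the replicate lists come from separate calls of unknown depth, so ranks are given as well: by rank, replicate 2 placed the site higher in 250 of the 446 and replicate 1 in 196.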

How the data were processed

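Peak lists of UNC-62 ChIP-seq in L1 larvae were used as deposited. Per the deposited text files, the authors made them from the alignment of each replicate, or of both pooled, and a control alignment. Signal values per entry are the authors' own, deposited without a stated formula, and the deposited −log10 q-value was not used. Library depth is unknown, as no read counts are listed, and for aligner, peak caller and IDR cutoff the answer is: not given in the sources used here. Entries were 336 bp wide, or 370 bp for replicate 1. Coordinates are 1-based on ce11. The ce10 lists were not used.

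Summits were placed against gene records of Ensembl release 115, motifs were searched within 100 bp of the summit in the WBcel235 reference sequence (NCBI RefSeq), and an entry met a site when it held its summit. Sets of entries are described by counts, medians and exact binomial 95% intervals, with no tests, since entries are not replicates and signal chose the sites. The members, lists and motifs were chosen with earlier results of these data known. Named genes are the 20 strongest sites, up to 3 strongest per gene list, 8 with TGACAG, 6 genes with 2 sites, those beside the signal minimum, and the 5 best ranks in replicate 1. The sites with TGATTGAC, sec-61.G and further list members were named after their values were seen. The code was checked on simulated data. Alternatives were the signal minimum, the window, the 5′ ends, small RNA genes, 1 site per gene, each replicate alone and the motif window. Python 3.11.15, numpy 2.4.6, pandas 2.3.3, scipy 1.17.1 and matplotlib 3.10.9 were used.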

Additional observations from a re-analysis of the deposited data

How the results depend on the processing

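Of 117 alternative values over 17 results, 88 moved by less than the main interval, or by under 1.5 times for a count, and 29 moved further. These compare each value with its main value, not with the weaker entries. Against those, counted with the main window, some contrasts turned round. The span was 814 bp for IDR entries and 1240 bp with a window of 500 bp, below the 1243 bp of weaker entries. Without replicate 1 TGATTGAC was at 0.474% in the top list and 0.647% below it. TGACAG was at 6.0% of IDR entries, against 6.41% of weaker entries. Without replicate 2 it was at 5.94% in the top list and 6.70% below it. The share on X, 15.5% for weaker entries, was 12% for IDR entries and 13.7% with a window of 500 bp. Without replicate 2 the share on X was 14.7%. With 5′ ends of all transcripts, without sites near small RNA genes, with 1 site per gene, with any overlap of 1 bp, outside the IDR list, or with wholly unique sites, no value moved. The last 2 of these, and the motif shares other than TGACAG and the counts of other gene lists, were chosen after seeing the data.

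A signal minimum of 25 left 141 sites, with a median distance of 295 bp, a GC content of 42.3%, top entries at 59.6% in replicate 1 and 91.5% in replicate 2, and 4 ribosomal protein genes. Entries that met an IDR peak numbered 50, with 283.5 bp, 43.8%, 72.0% and 100%, 3 ribosomal protein genes, 12% on X and an upstream span of 814 bp. A window of 500 bp left 388 sites, 253.5 bp, 55.9% in replicate 2 and a span of 1240 bp. TGACAG was found at 4.52% of sites within 50 bp and at 10.2% within 150 bp. The smaller counts of sites follow from the stricter rules, and a wider or narrower motif window holds more or fewer matches. The cause of the other moves was not tested.

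Leaving out replicate 1, and leaving out replicate 2, gave median distances of 365 and 445.5 bp, GC contents of 37.3% and 32.3%, and 11 and 8 ribosomal protein genes. The shares were 24.6% and 13.7% for GAGAGA, 13.3% and 7.91% for GACGCA, and 0.474% and 0.899% for TGATTGAC. Nuclear hormone receptor genes numbered 8 and 12, and body wall muscle genes 4 and 0. The cause was not tested. No paired analysis was possible because the study has 1 group and no test was made.

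With no depth and no control lists, the reliability of entries near the minimum of 18 could not be assessed, and 160 of the 620 sites were in the top list of neither replicate.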
